A study of Homo sapiens with 13 samples.

Results

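The collagen genes were the rows of the H82 and H146 expression tables whose symbol has the form COL, a type number, A and a chain number, and 44 of the 56831 rows met that rule. By the assemblies their chains form, 11 were fibrillar, 8 belonged to basement membranes and 25 were of other types. H82 and H146 are established small cell lung cancer (SCLC) lines, H82 of the NEUROD1 subtype and H146 of the other neuroendocrine (NE) subtype. Both are labelled wild type. H82 gave 3 libraries without the drug and 3 after FHD-286, and H146 gave 3 and 4. FHD-286, an allosteric inhibitor of the SMARCA2 and SMARCA4 ATPases of the SWI/SNF chromatin remodelling complex, was given at 100 nM for 14 days. Each line is a single cell culture model without fibroblasts or other stroma, and whether the libraries of a group came from separate cultures is not given in the sources used here, so that *p* values measure the spread between these libraries, which may be technical. The question was how the collagen genes of each line stood with and without the inhibitor.

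Collagens are triple helices of 3 chains that are hydroxylated, glycosylated, folded and trimmed on their way out of the cell. Fibrillar collagens are built into banded fibrils, in which types V and XI control the start and width of fibrils of types I and II. Type IV collagen forms the sheet-like network of basement membranes, and the remaining types decorate fibrils, form beaded filaments or networks, anchor epithelia or span the cell membrane. In a lung tumor most collagen protein is made by fibroblasts, whereas the values here are the RNA of cultured tumor cells alone.

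Values are TPM, in which gene length is divided out and each library is set to the same sum, so levels of different collagens are compared per length here. The read depth of the libraries is unknown from these values. Between 21227 and 21772 genes per library reached 1 TPM in untreated H82, against 15554 and 16633 with FHD-286, and the ranges were 17476 and 17965 and 18778 and 19309 in H146. Mitochondrial genes took 22.1 to 24.1% of the TPM of untreated H82 and 12.3 to 14.9% with treatment, and 7.56 to 8.86% and 3.82 to 11.4% in H146, where treated replicate 1 was the highest and replicate 4 the lowest. Each line was fitted with limma on log2(TPM + 1), over genes that reached 1 TPM in 3 or more of its libraries, and a gene was called at a Benjamini-Hochberg adjusted *p* under 0.05. A log2 difference below is treated minus untreated on that scale, which understates the change of genes near or below 1 TPM. Over all tested genes the median log2 difference was -0.56 in H82 and 0.25 in H146, and scaling the libraries by the median of ratios moved it to -0.14 and -0.02.

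One library stood apart. Treated H82 replicate 2 held 30.1 TPM of *COL2A1*, against 1.47 and 0.632 TPM in the other treated H82 libraries, and 296 TPM of the NE factor *INSM1*, against 32.1 and 33.9 TPM. It also held more RNA of 57 genes that reached 20 TPM in every H146 library and stayed below 0.1 TPM in every untreated H82 library. The median of these genes was 1.55 TPM there, against 0.247 and 0.122 TPM in treated replicates 1 and 3. Of the 57, 11 were listed at 0 in replicate 2, against 12 and 16 in treated replicates 1 and 3. *COL4A6* and *COL22A1*, abundant in H146, were also highest among the H82 libraries in replicate 2, at 2.47 and 0.514 TPM. What the makeup of this library contributed to those values was not tested.

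The untreated lines held different collagens. Summed over the 44 genes, collagen RNA came to 167 ± 19.3 TPM in untreated H82 and 85.4 ± 18.9 TPM with FHD-286 (SD, n = 3 and 3), and the groups did not overlap. In H146 the sum went from 494 ± 75.7 to 379.8 ± 46.1 TPM over 3 untreated and 4 treated libraries (SD). Every untreated H146 library, from 427 to 576 TPM, was above every treated one, from 317 to 419 TPM. *COL2A1* alone went from a mean of 222 to 4.38 TPM in H146, a larger fall than that of the sum. The remaining collagens thus summed to more with treatment there. Fewer cells expressing a collagen and less of its RNA per cell cannot be told apart in these bulk samples. In untreated H82, *COL27A1* made up 32.4% of the summed TPM, *COL5A1* 15.9% and *COL16A1* 13.8%. In untreated H146, *COL2A1* made up 44.7% and *COL4A6* 21.0%. With treatment no collagen led all H82 libraries. *COL9A2* led replicate 1 at 45.6%, *COL2A1* replicate 2 at 44.9% and *COL1A1* replicate 3 at 19.8%, just above *COL9A2* at 19.4%. In all 4 treated H146 libraries *COL4A6* led, at 30.6 to 35.5%, and *COL11A1* came next, at 14.0 to 18.4%.

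**Figure D1:**
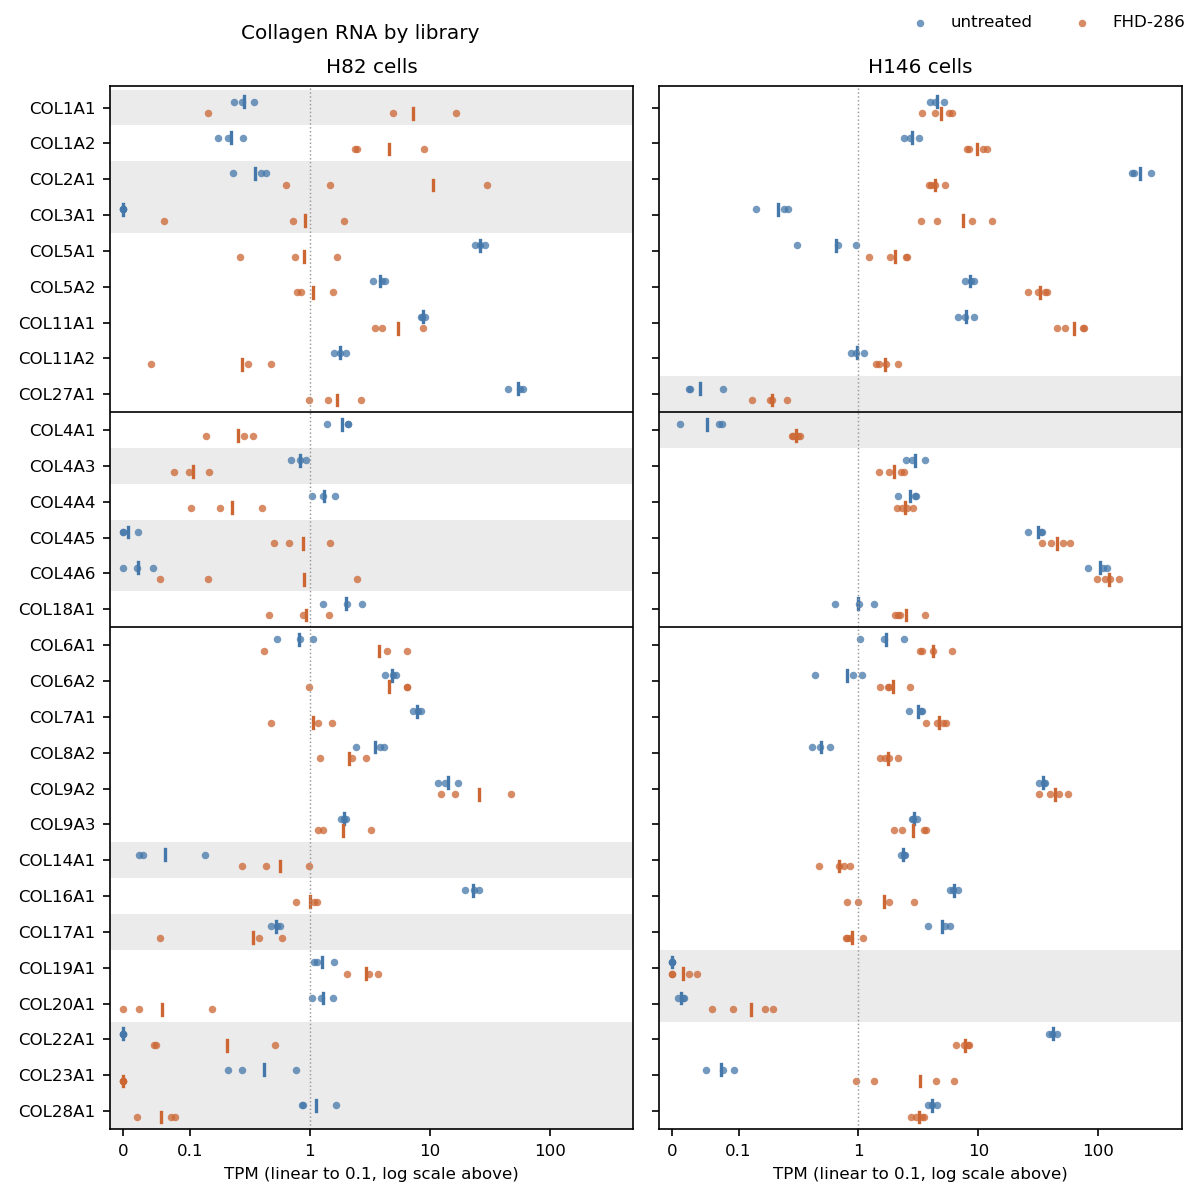
TPM in every library of the 29 collagen genes that passed the filter in either line, linear to 0.1 and logarithmic above, with fibrillar, basement membrane and other genes divided by lines; points are libraries, blue untreated and orange FHD-286, short bars are group means, grey bands mark genes below the filter in that line and the dotted line marks 1 TPM. *COL27A1* in H82 and *COL2A1* in H146 separate most widely by treatment.

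**Figure D2:**
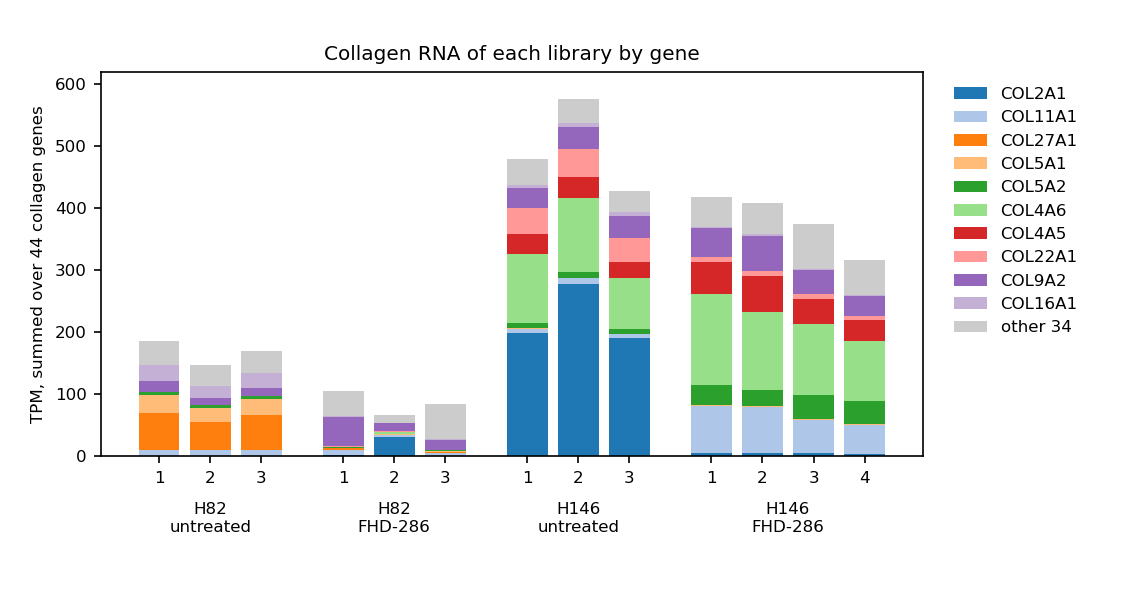
Summed collagen TPM per library, stacked by the leading collagen genes. The untreated H82 bars (147 to 185 TPM) are led by *COL27A1* and the untreated H146 bars (427 to 576 TPM) by *COL2A1*, and both segments are nearly gone in the treated bars, except for the *COL2A1* segment of treated H82 replicate 2.

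In H82, 18 collagen genes passed the filter, and 9 fell while 2 rose with FHD-286. Among all 19770 genes tested in H82, 45.5% were lower and 13.1% higher, so the collagens fell about as often as genes at large. The genes that fell were *COL4A1*, *COL4A4*, *COL5A1*, *COL5A2*, *COL7A1*, *COL11A2*, *COL16A1*, *COL20A1* and *COL27A1*, and those that rose were *COL1A2* and *COL19A1*. *COL4A1*, *COL4A4*, *COL11A2* and *COL20A1* reached 1 TPM only in untreated H82 libraries, and *COL1A2* only in treated ones. These genes thus passed the filter only through the group where they were higher. The median log2 difference of the 18 was -0.81, beside -0.56 for all genes. By class, 4 of 6 tested fibrillar genes fell and 1 rose, 2 of 3 basement membrane genes fell, and 3 of 9 other genes fell and 1 rose. Quantile normalization gave 5 lower and 4 higher collagens in H82 with a median of -0.01, under which *COL4A1*, *COL4A4*, *COL5A2* and *COL11A2* were no longer called and *COL6A1* and *COL9A3* were called higher.

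In H146, 25 collagen genes passed the filter, and 5 fell while 10 rose. The background in H146 was 15.5% lower and 32.5% higher of 19585 genes tested. *COL2A1*, *COL14A1*, *COL16A1*, *COL17A1* and *COL22A1* fell. *COL1A2*, *COL3A1*, *COL5A1*, *COL5A2*, *COL6A1*, *COL6A2*, *COL8A2*, *COL11A1*, *COL18A1* and *COL23A1* rose. The median log2 difference was 0.43, beside 0.25 for all genes, and 1 of 8 fibrillar genes fell while 5 rose. Scaling by the median of ratios gave 7 lower and 9 higher collagens, with *COL6A2* no longer called and *COL4A3* and *COL28A1* called lower, and quantile normalization gave 7 of each. Without untreated replicate 3 of H146, 6 collagens were higher, since *COL5A1*, *COL6A1*, *COL6A2* and *COL18A1* were no longer called. Among the called genes, *COL14A1* reached 1 TPM only in untreated H146 libraries. *COL3A1*, *COL5A1*, *COL8A2* and *COL23A1* reached it only in treated ones, so these genes also passed the filter only through the group where they were higher.

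The response differed between the lines for 20 of 29 collagens that could be tested, by the interaction of line and treatment in 1 limma fit over the 13 libraries. For 15 the response was higher in H146 and for 5 it was lower, beside 46.5% and 13.7% of all 23676 genes tested in that fit. The median difference of all those genes, H146 minus H82, was 0.73, and 0.14 after scaling by the median of ratios. The 5 with a lower response in H146 were *COL2A1*, *COL14A1*, *COL17A1*, *COL19A1* and *COL22A1*. Of the 29 collagens, 14 passed the filter in both lines. *COL2A1*, *COL3A1*, *COL4A1*, *COL14A1*, *COL17A1*, *COL19A1*, *COL20A1*, *COL22A1*, *COL23A1*, *COL27A1* and *COL28A1* were called while below the filter in 1 line. A gene near 0 in a line has little room to fall there on the log2(TPM + 1) scale. Such a difference can restate the call of the other line. *COL16A1* fell in both lines and *COL1A2* rose in both. *COL5A1* and *COL5A2* fell in H82 and rose in H146. Scaling by the median of ratios kept 18 of the 20 calls and quantile normalization kept 14, with 9 collagens higher and 9 lower under the latter. *COL3A1*, *COL4A4*, *COL8A2*, *COL11A2*, *COL18A1* and *COL28A1* lost the call with quantile normalization, and *COL1A1*, *COL1A2*, *COL4A5* and *COL9A3* gained one. A pseudocount of 0.1 kept 17 of the 20, without *COL3A1*, *COL17A1* and *COL19A1*.

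**Figure D3:**
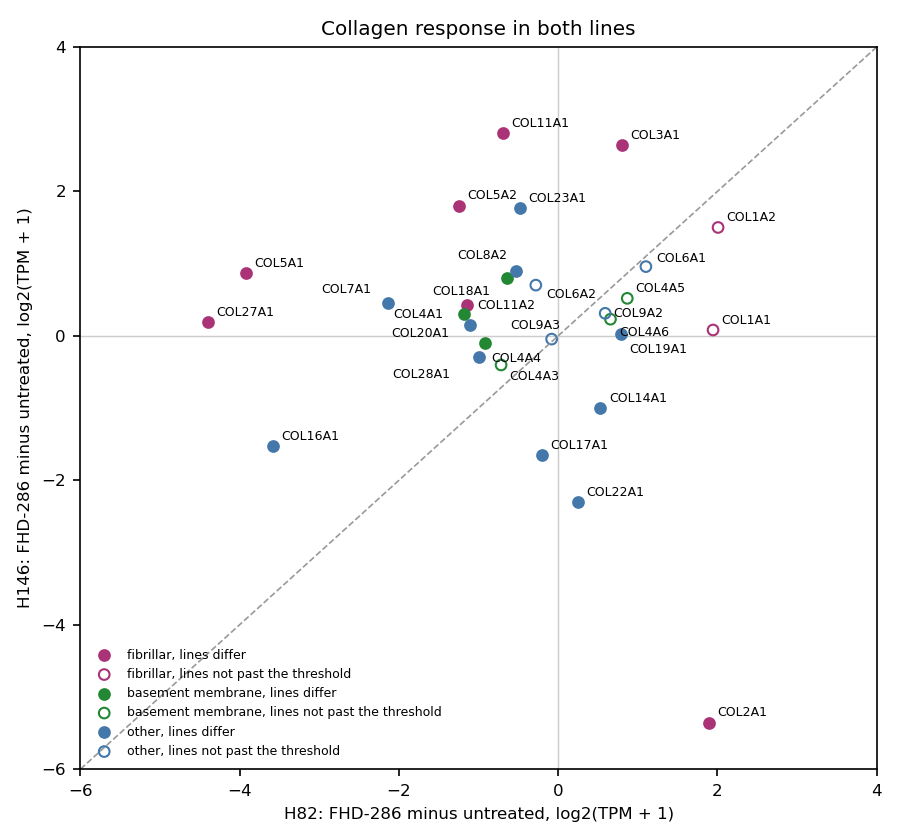
Log2 difference of each tested collagen in H82 (horizontal) against H146 (vertical), treated minus untreated on the log2(TPM + 1) scale, coloured by class; filled points passed the test of the difference between lines and the dashed diagonal marks equal responses. *COL5A1* and *COL27A1* lie far to the left and *COL2A1* at the bottom, and the scaling between libraries shifts all points of a line together.

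*COL27A1* encodes a fibrillar chain known from developing cartilage and was the leading collagen of untreated H82. The gene (ENSG00000196739.15) spans chromosome 9, 114155537 to 114312511 in hg38. Its level in H82 was 60.5, 45.1 and 57.2 TPM in the untreated libraries and 2.66, 0.992 and 1.42 TPM with FHD-286. The groups lie far apart, and the ratio of the means was 32.1. The log2 difference was -4.40 (standard error 0.26, limma adjusted *p* = 0.000108). In H146 the same gene was near 0, at 0.0759, 0.0274 and 0.025 TPM without and 0.188, 0.183, 0.253 and 0.129 TPM with treatment, below the filter. The log2 difference between the responses, H146 minus H82, was 4.58 (limma adjusted *p* = 3.23e-07).

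Type V collagen, whose chains nucleate fibrils, moved in opposite directions in the lines. *COL5A1* (ENSG00000130635.17, chromosome 9, 134641803 to 134844843 in hg38) stood at 29.2, 24.1 and 26.1 TPM in untreated H82 and at 0.747, 0.26 and 1.68 TPM with treatment, and it fell by 3.92 on the log2 scale (standard error 0.29, limma adjusted *p* = 0.000155). H146 libraries rose from 0.949, 0.677 and 0.304 to 1.83, 1.22, 2.53 and 2.51 TPM without overlap of the groups (log2 difference 0.87, limma adjusted *p* = 0.016). The partner chain *COL5A2* showed the same pair of directions. In H82 it went from 3.99, 3.33 and 4.21 to 0.851, 0.776 and 1.57 TPM (log2 difference -1.25, limma adjusted *p* = 0.00299). The H146 levels rose from 8.71, 9.28 and 7.77 to 31.2, 25.8, 37.7 and 36.2 TPM (log2 difference 1.80, limma adjusted *p* = 9.32e-05). The lines differed by 4.79 for *COL5A1* and 3.05 for *COL5A2* in log2 units (adjusted *p* from limma = 1.42e-06 and 2.44e-06). The ratio of *COL5A1* to *COL5A2* was 6.21 to 7.31 in untreated H82, 0.336 to 1.07 in treated H82 and at most 0.109 in H146, so the balance of the chains also differed. These signs held under both other scalings, although the calls of *COL5A2* in H82 and *COL5A1* in H146 were lost with quantile normalization. The third chain, *COL5A3*, reached no more than 0.283 TPM in any library.

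*COL2A1* encodes the chain of type II collagen, the main fibril of cartilage, and led the collagens of untreated H146. The gene (ENSG00000139219.19) lies at chromosome 12, 47972967 to 48004554 in hg38. It was measured at 198, 278 and 189.8 TPM in untreated H146 and at 4.06, 4.31, 5.25 and 3.91 TPM with FHD-286, where the 4 libraries were close together. The means differed 50.7-fold, and the log2 difference was -5.36 (standard error 0.17, limma adjusted *p* = 1.14e-06). In H82 its levels were 0.23, 0.389 and 0.43 TPM without and 1.47, 30.1 and 0.632 TPM with treatment, below the filter. All 3 treated H82 libraries were above all untreated ones, with replicate 2 far above the rest (exact permutation *p* = 0.1, the smallest the design allows). The lines differed by -7.25 (limma adjusted *p* = 0.000107), and it was -5.93 without treated H82 replicate 2 (limma adjusted *p* = 2.55e-07). Of the 4 cartilage cell markers, *SOX9* alone was tested in H146, where it stood at 16.6, 19.2 and 14.5 TPM untreated and 7.2, 9.8, 12.8 and 13.5 TPM treated (limma adjusted *p* = 0.0468). That call was lost in 8 of 15 alternatives, among them without untreated replicate 1, 2 or 3 or treated replicate 1 or 2 (limma adjusted *p* of the 8 from 0.0513 to 0.155). *MATN1* lay the other way, at 0, 0.0208 and 0 TPM untreated and 0.262, 0.0694, 0.21 and 0.348 TPM treated. *COMP* was at 0.498, 0.619 and 0.929 TPM untreated and 0.496, 0.343, 2.28 and 2.07 TPM treated, with overlap. *ACAN*, the cartilage proteoglycan, was listed at 0 in all 3 untreated H146 libraries. The part of these markers in the *COL2A1* result was not tested.

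Type XI collagen is the minor fibrillar partner of type II. *COL11A1* (ENSG00000060718.22, chromosome 1, 102876467 to 103108872 in hg38) rose in H146, from 7.71, 9.19 and 6.71 to 76.6, 75, 52.4 and 45.5 TPM. That was a log2 difference of 2.81 (standard error 0.21, limma adjusted *p* = 4.21e-05), and the treated libraries all lay above the untreated ones. *COL2A1* and *COL11A1* changed places, with 25.7 to 30.3 times as much *COL2A1* as *COL11A1* in H146 before treatment and 0.0530 to 0.10 times as much after it. In H82 *COL11A1* was at 9.2, 8.67 and 8.51 TPM without and at 8.78, 3.5 and 3.98 TPM with treatment. These groups overlapped, and the log2 difference of -0.70 missed the threshold (limma adjusted *p* = 0.0913, 95% interval -1.43 to 0.04). *COL11A2* fell in H82, from 1.79, 2 and 1.58 to 0.479, 0.0412 and 0.303 TPM (limma adjusted *p* = 0.00305). In H146 the levels of *COL11A2* were 1.1, 0.868 and 0.959 TPM untreated and 2.14, 1.49, 1.69 and 1.41 TPM treated, which did not overlap but gave a limma adjusted *p* of 0.0692. The lines differed by 3.51 for *COL11A1* and 1.58 for *COL11A2* in log2 units (limma adjusted *p* = 1.29e-05 and 0.000115), and the latter fell to 0.51 with quantile normalization and was no longer called (limma adjusted *p* = 0.0822).

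The chains of types I and III, the interstitial collagens that fibroblasts make in bulk, were low in both untreated lines. *COL1A2* (ENSG00000164692.19, chromosome 7, 94394895 to 94431227 in hg38) rose in H82 from 0.172, 0.209 and 0.275 to 2.46, 2.4 and 8.99 TPM (log2 difference 2.01, limma adjusted *p* = 0.00597). It rose in H146 from 2.72, 3.21 and 2.41 to 8.35, 8.07, 11.8 and 10.9 TPM (log2 difference 1.50, limma adjusted *p* = 0.000429). The groups did not overlap in either line, and the responses of the lines were not told apart (difference -0.51, 95% interval -1.52 to 0.51, limma adjusted *p* = 0.366). With quantile normalization they did differ, by -1.46 (limma adjusted *p* = 0.0138). *COL1A1*, the chain that pairs with *COL1A2* in type I collagen, did not follow it in H146, where it stood at 4.32, 5.19 and 3.97 TPM without and 3.41, 6.07, 5.7 and 4.35 TPM with treatment (limma adjusted *p* = 0.767). The ratio of *COL1A1* to *COL1A2* was 1.59 to 1.65 in H146 without FHD-286 and 0.400 to 0.753 with it. In H82 *COL1A1* ran from 0.234, 0.343 and 0.271 TPM to 4.95, 0.141 and 16.7 TPM, below the filter, with treated replicate 2 under every untreated library (exact permutation *p* = 0.4, two-sided). *COL3A1*, the type III chain, was listed at 0 in all untreated H82 libraries and at 0.719, 0.0611 and 1.93 TPM in the treated ones. In H146 it rose from 0.241, 0.141 and 0.256 to 4.48, 3.31, 13.1 and 8.91 TPM, with treated replicate 3 the highest (log2 difference 2.64, limma adjusted *p* = 0.000965). *COL3A1* and *COL5A2* are neighbours on chromosome 2 with 19151 bases between them, and both rose in H146, while in H82 *COL5A2* fell. *COL24A1*, the last fibrillar gene, stayed at or below 1.01 TPM in all libraries.

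Fibroblast markers were examined beside these genes. Their summed TPM over 7 markers was 2.60 to 3.03 in untreated H82 and 7.60, 28.9 and 8.69 in treated H82 replicates 1, 2 and 3. In H146 it was 40.8 to 60.8 untreated and 23.9 to 43.6 treated. Of the 7, *PDGFRA*, *FAP* and *POSTN* were listed at 0 in all untreated H82 libraries. In H82 *DCN* and *LUM* rose and *THY1* fell among the 3 markers tested, the last of these not under quantile normalization (limma adjusted *p* = 0.0653). *DCN* reached 1 TPM only in treated H82 libraries and *THY1* only in untreated ones. Both thus passed the filter only through the group where they were higher. Of all genes tested in H82, 45.5% were lower and 13.1% higher. In H146 *THY1* fell, while *PDGFRA* and *POSTN* were tested and not called (limma adjusted *p* = 0.592 and 0.328). *FAP* was below the filter there and overlapped. *DCN*, *LUM* and *PDGFRB*, also below the filter, were higher in every treated H146 library than in any untreated one. Among all genes below the filter with a TPM above 0, the groups did not overlap for 14.9% in H146, a share not matched to the levels of these markers. *DCN* was at 0.0301, 0.0224 and 0.0408 TPM untreated and 0.171, 0.0497, 0.359 and 0.132 TPM treated there, *LUM* at 0.0642, 0.0319 and 0 TPM and 0.219, 0.0708, 1.07 and 0.266 TPM, and *PDGFRB* at 0.243, 0.188 and 0.0979 TPM and 0.416, 0.463, 0.691 and 0.365 TPM (exact permutation *p* = 0.0571, 0.0571 and 0.0286). *POSTN* reached 23.5 TPM in treated H82 replicate 2, with 1.33 TPM in replicate 1 and 0.630 TPM in replicate 3. *PDGFRA* stayed at or below 0.0917 TPM in treated H82. The part of these markers in the rises of *COL1A2* and *COL3A1* was not tested.

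Type IV genes lie in head-to-head pairs, in which both chains are read outward from a short shared stretch of DNA. One stretch between the start sites is shown for each of the 3 pairs, since the data bear on whether partners move together. The RefSeq start sites (GRCh38.p14) lie 126, 418 and 379 bases apart, of which 100, 170 and 250 bases are shown. They lie outside annotated exons of the pair and within 250 bases of the start of the second gene, so for *COL4A6* and *COL4A5* the stretch is not whole. They are given on the forward strand and carry in capitals the GC box GGGCGG or its reverse CCGCCC, and the CCAAT box CCAAT or its reverse ATTGG.
COL4A1 and COL4A2, chr13:110307158-110307257: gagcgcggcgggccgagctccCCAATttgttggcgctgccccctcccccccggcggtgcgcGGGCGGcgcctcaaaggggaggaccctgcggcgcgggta
COL4A4 and COL4A3, chr2:227164454-227164623: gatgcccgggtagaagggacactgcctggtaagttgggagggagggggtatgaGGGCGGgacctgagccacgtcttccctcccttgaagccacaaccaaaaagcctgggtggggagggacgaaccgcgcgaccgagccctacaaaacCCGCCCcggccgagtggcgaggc
COL4A6 and COL4A5, chrX:108439588-108439837: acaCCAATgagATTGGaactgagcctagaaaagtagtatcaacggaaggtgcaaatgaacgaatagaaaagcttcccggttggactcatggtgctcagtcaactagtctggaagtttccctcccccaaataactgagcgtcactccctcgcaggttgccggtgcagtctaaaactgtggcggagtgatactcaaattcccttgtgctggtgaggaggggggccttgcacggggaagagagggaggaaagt
The first holds 1 GC box and 1 CCAAT box, the second 2 GC boxes and the third 2 CCAAT boxes, and the letters TATAAA or TTTATA were in none. In the 100 bases before the start sites of 35116 RefSeq promoters, 31.3% held a GC box and 18.1% a CCAAT box. The shares were 38.3% and 25.4% over 170 bases, and 42.6% and 32.0% over 250 bases. The TATA letters were in 4.99%, 7.44% and 10.7% at these lengths. Over the whole length of those promoters, 45.0% held a GC box, 34.6% a CCAAT box and 11.5% the TATA letters, beside 54.5%, 31.8% and 18.2% of the 44 promoters listed for 32 collagen genes. A match of letters is a description and not a site of binding.

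*COL4A1* and *COL4A2* make the type IV network found in nearly all basement membranes. *COL4A1* fell in H82, from 2.08, 1.39 and 2.1 to 0.336, 0.136 and 0.28 TPM (log2 difference -1.19, limma adjusted *p* = 0.00222). Its partner *COL4A2* was at 0.0881, 0.655 and 0.188 TPM without and 0.261, 0.207 and 0.308 TPM with treatment, below the filter and with overlap. In H146 both were low, *COL4A1* at 0.0707, 0.0117 and 0.0746 TPM untreated and 0.282, 0.312, 0.328 and 0.281 TPM treated and *COL4A2* at 0.244, 0.198 and 0.14 TPM untreated and 0.492, 0.318, 0.505 and 0.368 TPM treated. For both, every treated H146 library was above every untreated one (exact permutation *p* = 0.0286, the smallest 3 against 4 libraries allow, two-sided). The annotated spans of these genes overlap on opposite strands, and whether the counting used strand is not given in the sources used here.

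*COL4A3* and *COL4A4*, with *COL4A5*, form the network of kidney, lung and inner ear basement membranes. *COL4A4* fell in H82, from 1.29, 1.62 and 1.04 to 0.178, 0.399 and 0.101 TPM (log2 difference -0.92, limma adjusted *p* = 0.00651). *COL4A3* stayed below the filter there, at 0.694, 0.938 and 0.83 TPM untreated and 0.144, 0.0761 and 0.0979 TPM treated, and did not overlap either (exact permutation *p* = 0.1). In H146 *COL4A3* was at 3.61, 2.78 and 2.47 TPM without and 1.81, 2.38, 2.27 and 1.49 TPM with treatment, and *COL4A4* at 2.97, 3.01 and 2.14 TPM untreated and 2.53, 2.11, 2.85 and 2.31 TPM treated. Neither reached the threshold in H146 (limma adjusted *p* = 0.112 and 0.668), although *COL4A3* was called lower after scaling by the median of ratios (limma adjusted *p* = 0.0226). The difference between the lines for *COL4A4* was 0.82 (limma adjusted *p* = 0.0106), and that call was lost with the median of ratios and with quantile normalization, under which the sign turned.

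The X-linked pair *COL4A5* and *COL4A6* had the highest levels of the basement membrane genes, all of them in H146. *COL4A6* stood at 110.3, 119 and 82.4 TPM in untreated H146 and at 148, 127, 115 and 98 TPM with treatment. *COL4A5* stood at 33.5, 34 and 26.1 TPM untreated and 50.9, 57.8, 40.4 and 33.9 TPM treated. In both cases the groups overlapped, and the log2 differences of 0.23 and 0.52 missed the threshold (limma adjusted *p* = 0.314 and 0.0575, 95% intervals -0.18 to 0.64 and 0.07 to 0.97). The ratio of *COL4A6* to *COL4A5* was 3.16 to 3.50 without treatment and 2.19 to 2.92 with it in H146. In untreated H82 the pair was near 0, *COL4A5* at 0, 0.0219 and 0 TPM and *COL4A6* at 0.0207, 0 and 0.0441 TPM. With treatment *COL4A5* reached 0.675, 1.46 and 0.505 TPM and *COL4A6* 0.142, 2.47 and 0.055 TPM, with the highest value of each in replicate 2.

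**Figure D4:**
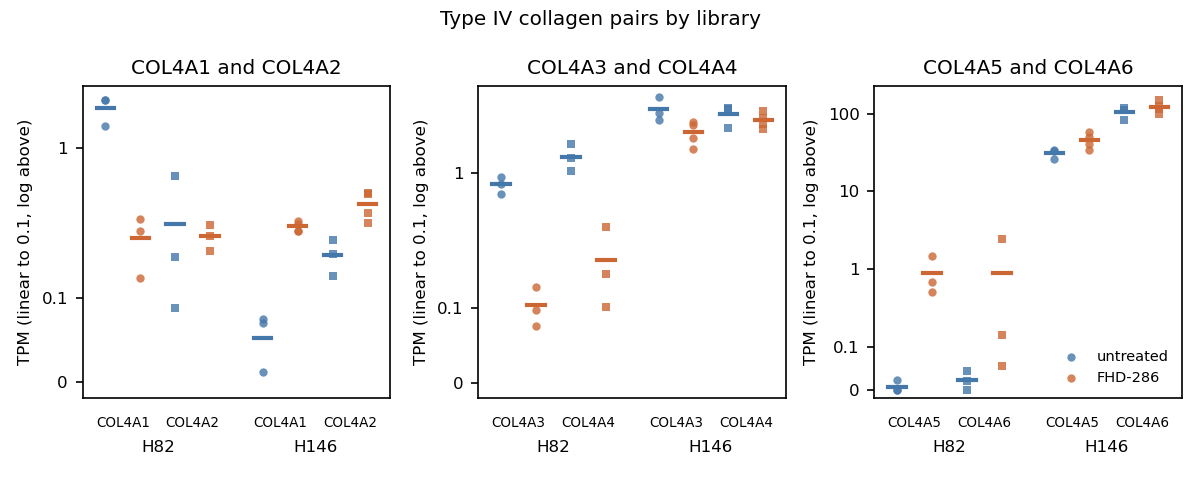
TPM of the partners of each type IV pair in every library, linear to 0.1 and logarithmic above, with bars at the group means. *COL4A1* drops in treated H82 while *COL4A2* overlaps, and *COL4A5* and *COL4A6* lie at or above 26.1 TPM in every H146 library and at or below 2.47 TPM in H82.

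*COL18A1*, the precursor of endostatin in basement membranes, rose in H146 from 1.34, 1.01 and 0.635 to 2.04, 2.22, 3.57 and 2.13 TPM (log2 difference 0.80, limma adjusted *p* = 0.0164). Treated replicate 3 was well above the other treated libraries, which lay close together. In H82 it was at 2.72, 1.28 and 2.04 and 1.46, 0.456 and 0.883 TPM with overlapping groups (limma adjusted *p* = 0.0886). The lines differed by 1.45 (limma adjusted *p* = 0.00348), and by 0.19 with quantile normalization, which was not called (limma adjusted *p* = 0.633). *COL15A1*, the other collagen of this kind, was at or below 0.226 TPM in all libraries.

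Among the fibril-associated collagens, which sit on the surface of fibrils, *COL16A1* fell in both lines. In H82 it went from 25.9, 19.6 and 23.6 TPM to 0.76, 1.09 and 1.14 TPM (log2 difference -3.59, standard error 0.20, limma adjusted *p* = 9.6e-05). H146 libraries held 6.11, 5.78 and 6.82 TPM of it untreated and 1.8, 2.9, 0.798 and 0.983 TPM treated (log2 difference -1.53, standard error 0.28, limma adjusted *p* = 0.00265). The gene lies at chromosome 1, 31652263 to 31704319 in hg38, and its fall was deeper in H82 by 2.06 on the log2 scale (limma adjusted *p* = 0.00036).

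*COL22A1*, known from tissue junctions of muscle and tendon, fell in H146 from 41, 45.1 and 39 to 8.22, 8.35, 7.59 and 6.56 TPM (log2 difference -2.30, limma adjusted *p* = 1.28e-05). It was listed at 0 in all untreated H82 libraries and at 0.0458, 0.514 and 0.0489 TPM in the treated ones, and the lines differed by -2.54 (limma adjusted *p* = 5.63e-06). *COL14A1* fell in H146 as well, from 2.46, 2.4 and 2.25 to 0.47, 0.764, 0.844 and 0.683 TPM (limma adjusted *p* = 0.00186). In H82 it was below the filter, at 0.133, 0.03 and 0.0237 TPM without and 0.981, 0.273 and 0.428 TPM with treatment, where the treated libraries were the higher ones. The difference between the lines for *COL14A1* was -1.53 (limma adjusted *p* = 0.000146).

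*COL19A1* and *COL20A1* were expressed in H82 and near 0 in H146. *COL19A1* rose in H82 from 1.15, 1.58 and 1.08 to 3.71, 2.05 and 3.12 TPM (log2 difference 0.79, limma adjusted *p* = 0.024), a call that was lost without untreated replicate 1 or 3 or treated replicate 1 or 3. In H146 it was listed at 0 in the untreated libraries and at 0.0258, 0, 0.0378 and 0 TPM in the treated ones. *COL20A1* fell in H82 from 1.56, 1.04 and 1.25 to 0.152, 0 and 0.0232 TPM (log2 difference -1.10, limma adjusted *p* = 0.00219). In H146 its values were 0.00879, 0.0175 and 0.0159 TPM untreated and 0.0601, 0.194, 0.166 and 0.0912 TPM treated, so that the lines differed by 1.26 for *COL20A1* and by -0.76 for *COL19A1* (limma adjusted *p* = 5.91e-05 and 0.0109).

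Type IX collagen, a coat of cartilage fibrils, gave no call in either line. *COL9A2* was at 17.2, 11.7 and 13.4 TPM in untreated and 47.7, 12.5 and 16.4 TPM in treated H82, with 1 high library, treated replicate 1. H146 libraries ran at 32.1, 35.9 and 35.6 TPM untreated and 47.1, 56.3, 40.0 and 32.4 TPM treated. Neither change reached the threshold (log2 differences 0.59 and 0.31, limma adjusted *p* = 0.307 and 0.189, 95% intervals -0.50 to 1.68 and -0.11 to 0.73). *COL9A3* was at 1.83, 1.93 and 1.99 TPM untreated and 3.22, 1.29 and 1.16 TPM treated in H82 and at 2.86, 3.06 and 2.82 TPM untreated and 3.53, 3.64, 2.31 and 1.97 TPM treated in H146, again with overlap. Its log2 differences of -0.08 and -0.05 missed the threshold (limma adjusted *p* = 0.823 and 0.87), and the sign in H82 turned under both other scalings. *COL9A1*, the third chain, stayed at or below 0.877 TPM.

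Type VI collagen forms beaded filaments around cells from 3 different chains. *COL6A1* rose in H146, from 2.4, 1.63 and 1.03 to 3.41, 3.27, 6.02 and 4.16 TPM, and *COL6A2* rose from 1.08, 0.908 and 0.438 to 1.51, 1.8, 2.67 and 1.77 TPM (limma adjusted *p* = 0.0136 and 0.0254). Their ratio was 1.80 to 2.35 untreated and 1.82 to 2.36 treated, so the chains kept their proportion. In H82 *COL6A1* was at 0.825, 0.534 and 1.07 TPM without and 4.43, 0.416 and 6.47 TPM with treatment. The groups overlapped through replicate 2 (limma adjusted *p* = 0.149), and without that library *COL6A1* was higher by 1.82 on the log2 scale (limma adjusted *p* = 0.00323). *COL6A2* in H82 was at 5.27, 4.24 and 4.98 TPM untreated and 6.41, 0.979 and 6.46 TPM treated, again with replicate 2 as the low library (limma adjusted *p* = 0.661). The lines were not told apart for either chain (limma adjusted *p* = 0.862 and 0.149). The third chain, *COL6A3*, was below the filter in both lines.

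*COL7A1* encodes the anchoring fibrils that fasten epithelium to the tissue below. It fell in H82 from 8.42, 7.19 and 8.06 to 1.53, 0.476 and 1.18 TPM (log2 difference -2.14, standard error 0.25, limma adjusted *p* = 0.000565). H146 held 3.3, 2.63 and 3.39 TPM of it without and 4.52, 5.41, 5.05 and 3.65 TPM with treatment, which did not overlap but missed the threshold (limma adjusted *p* = 0.0626). The lines differed by 2.60 (limma adjusted *p* = 1.64e-05).

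Of the short-chain network collagens, *COL8A2* rose in H146 from 0.475, 0.575 and 0.411 to 2.14, 1.5, 1.81 and 1.65 TPM (log2 difference 0.90, limma adjusted *p* = 0.0033). In H82 it was at 4.19, 2.44 and 3.81 TPM untreated and 2.92, 1.22 and 2.27 TPM treated, with overlap (limma adjusted *p* = 0.151), and the lines differed by 1.43 (limma adjusted *p* = 0.00164). With quantile normalization that difference was 0.14 and no longer called (limma adjusted *p* = 0.717).

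The transmembrane collagens moved apart in H146. *COL17A1*, part of the hemidesmosomes of epithelial cells, fell from 5.32, 5.84 and 3.78 to 0.804, 1.09, 0.785 and 0.857 TPM (log2 difference -1.65, limma adjusted *p* = 0.000293). *COL23A1* rose from 0.0769, 0.0509 and 0.0927 to 1.34, 0.961, 6.21 and 4.47 TPM, with treated replicates 3 and 4 above 1 and 2 (log2 difference 1.77, limma adjusted *p* = 0.0114). Both were below the filter in H82. There *COL17A1* was at 0.537, 0.565 and 0.478 TPM untreated and 0.0558, 0.583 and 0.377 TPM treated, and *COL23A1* went from 0.764, 0.207 and 0.272 TPM to 0 in all 3 treated libraries. The differences between lines were -1.44 and 2.25 in log2 units (limma adjusted *p* = 0.000424 and 0.00344). In H146 3 of 4 epithelial markers also fell, beside 15.5% of all genes tested, while *CDH1* was not called (limma adjusted *p* = 0.366). The summed TPM of the 4 was 1353 to 1377 without treatment and 522 to 589 with it. In H82 *KRT8* and *KRT18* rose instead, and the sum was 1.49 to 3.16 TPM untreated and 8.02 to 63.4 TPM treated, highest in replicate 2. Both genes reached 1 TPM only in treated H82 libraries, and 13.1% of all genes tested in H82 were higher. The part of these markers in the fall of *COL17A1* was not tested.

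*COL28A1*, a collagen known from peripheral nerve, was at 4.51, 3.83 and 4.08 TPM in untreated and 3.39, 3.54, 3.05 and 2.74 TPM in treated H146, without overlap and short of the threshold (limma adjusted *p* = 0.147). In H82 it stood below the filter at 0.869, 1.65 and 0.866 TPM untreated and 0.0722, 0.021 and 0.0771 TPM treated, where the treated libraries were the lower ones (exact permutation *p* = 0.1). The lines differed by 0.69 (limma adjusted *p* = 0.0242). The median of ratios gave 0.34 and quantile normalization -0.16, neither of them called (limma adjusted *p* = 0.25 and 0.581), and the call was also lost without untreated replicate 2 of H82 or of H146.

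The other 15 collagens were below the filter in both lines, and none passed 2.53 TPM in any library, a value of *COL6A3* in treated H82 replicate 3. Over all collagens below the filter in a line, the groups did not overlap for 13 of 26 in H82, 8 of them higher with treatment, and for 15 of 19 in H146, 12 of them higher. Among all genes below the filter with a TPM above 0, the groups did not overlap for 23.6% in H82 and 14.9% in H146. Those shares take in genes detected in few libraries, and groups that both hold a 0 count as overlapping. They were not matched to the levels of the collagens, so no excess can be read from them. *COL6A6* went from 0.769, 0.56 and 0.674 to 0.0492, 0.0143 and 0.0787 TPM in H82, and *COL10A1*, a marker of hypertrophic cartilage, from 0.603, 0.544 and 0.268 to 0.0313, 0 and 0 TPM. In H146 *COL26A1* went from 0.214, 0.0608 and 0.221 to 0.696, 0.81, 0.952 and 0.825 TPM and *COL21A1* from 0.627, 0.745 and 0.629 to 0.0466, 0, 0.288 and 0.212 TPM (exact permutation *p* = 0.0286 for each). *COL6A3* in H146 went from 0.364, 0.435 and 0.378 to 0.134, 0.136, 0.284 and 0.265 TPM (exact permutation *p* = 0.0571). The smallest *p* of this two-sided test is 0.1 with 3 against 3 libraries, so no H82 value could pass 0.05, and these values were not adjusted for the number of genes.

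The genes that mature, bind and degrade collagen are a list of 55 enzymes, chaperones, receptors, proteases and protease inhibitors. Of these, 40 were tested in H82 and 42 in H146. In H82, 15 fell and 6 rose, with a median log2 difference of -0.03, beside the all-gene shares of 45.5% and 13.1% and the all-gene median of -0.56. In H146, 9 fell and 14 rose, with a median of 0.28, beside 15.5%, 32.5% and 0.25. These splits depended on the scaling, since the median of ratios gave 11 lower and 15 higher in H82 and 13 lower and 8 higher in H146. Of the 32 maturation genes, 27 were tested in H82, where 10 fell and 5 rose, and 28 in H146, where 4 fell and 11 rose. Of the 12 receptors, 6 were tested in H82, where 3 fell, and 8 in H146, where 3 fell and 2 rose. Of the 11 degradation genes, which include the TIMP inhibitors of metalloproteinases beside proteases, 2 fell and 1 rose in each line.

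The lysyl oxidases, which cross-link collagen, went both ways. *LOXL1* fell in H82 from 56.9, 45.6 and 53.6 to 5.06, 2.59 and 2.07 TPM (log2 difference -3.70, limma adjusted *p* = 0.000152) and rose in H146 from 2.31, 1.98 and 2.02 to 4.77, 3.19, 6.02 and 4.71 TPM (limma adjusted *p* = 0.00938). *LOX* rose in H146 from 2.98, 3.63 and 2.57 to 43.6, 36.2, 18.6 and 19.9 TPM (log2 difference 2.83, limma adjusted *p* = 0.00023), and *LOXL2* fell there from 9.05, 12.4 and 7.28 to 2.93, 3.19, 3.2 and 2.68 TPM. In H82 *LOXL2* fell as well, from 6.52, 7.5 and 6.13 to 0.879, 0.486 and 1.92 TPM (limma adjusted *p* = 0.00131). *LOXL3* and *LOXL4*, chosen after their values were seen, fell in H82 and *LOXL4* in H146, but the H82 call of *LOXL3* was lost under both other scalings and that of *LOXL4* under quantile normalization. *LOX* in H82 missed the threshold, at 13, 15.3 and 15.4 TPM untreated and 12.6, 33.8 and 28.5 TPM treated, and was called higher under both other scalings (limma adjusted *p* = 0.157, and 0.0254 and 0.0161 after scaling). *ADAMTS14*, which removes the amino-terminal propeptide of procollagen, fell in both lines, by 3.36 in H82 and 2.50 in H146 as log2 differences (limma adjusted *p* = 0.000304 and 2.37e-05). In H146 *ADAMTS14* passed the filter through the untreated libraries alone. Its levels were 16.8, 15.9 and 18.6 TPM in untreated and 1.88, 0.421 and 0.339 TPM in treated H82. *PCOLCE*, the enhancer of procollagen trimming at the other end, fell in H146 by 1.34 on the log2 scale, to 15 ± 5.22 TPM (SD, n = 4).

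Among the enzymes that modify the chains, *P3H2* and *COLGALT2* rose in both lines. *P3H2*, a prolyl 3-hydroxylase of type IV collagen, went from 2.94, 2.22 and 2.41 to 5.03, 7.77 and 10.4 TPM in H82 and from 5.11, 5.01 and 3.5 to 23.8, 32.9, 15.4 and 16.3 TPM in H146. *COLGALT2*, a galactosyltransferase of hydroxylysine, rose by 1.16 in H82 and 2.00 in H146 (log2 differences), and its treated means were 3.63 ± 0.359 TPM (SD, n = 3) and 4.64 ± 1.65 TPM (SD, n = 4). In H146 *COLGALT2* passed the filter through the treated libraries alone. *PPIB*, a folding isomerase, rose in H82 by 1.15 and *P3H4*, part of a lysyl hydroxylase complex, rose in H146 by 1.95 in log2 units (limma adjusted *p* = 0.0142 and 0.000827). The call of *PPIB* was lost under quantile normalization (limma adjusted *p* = 0.0633), and its treated H82 levels were 448, 227 and 203 TPM. *SERPINH1*, the chaperone of the collagen triple helix, was chosen after its values were seen. It was at 0.078, 0.158 and 0.0833 TPM in untreated and 0.559, 0.791 and 1.19 TPM in treated H82, below the filter, against 119, 121 and 122 TPM untreated and 109, 103, 141 and 134 TPM treated in H146.

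Receptors and proteases completed the list. *DDR2*, a collagen receptor kinase, fell in H82 from 14.2, 17.2 and 13.9 to 0.379, 0.401 and 0.761 TPM (log2 difference -3.42, limma adjusted *p* = 0.000108). It passed the filter through the untreated H82 libraries alone. *ADGRG1*, a receptor for type III collagen, fell in H146 from 56.5, 53.1 and 49.1 to 7.23, 6.57, 6.96 and 5.84 TPM (log2 difference -2.82, limma adjusted *p* = 4.2e-06). In H82 *ADGRG1* was near 0 except for treated replicate 2, where it reached 4.97 TPM. *MMP14*, a membrane-bound collagenase, rose in H82 from 2.28, 2.27 and 2.34 to 14.9, 23 and 25.6 TPM, and *CTSK*, a lysosomal collagenase, fell from 8.74, 10.7 and 8.79 to 0.886, 0.956 and 2.16 TPM (limma adjusted *p* = 0.000222 and 0.000581).

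**Figure D5:**
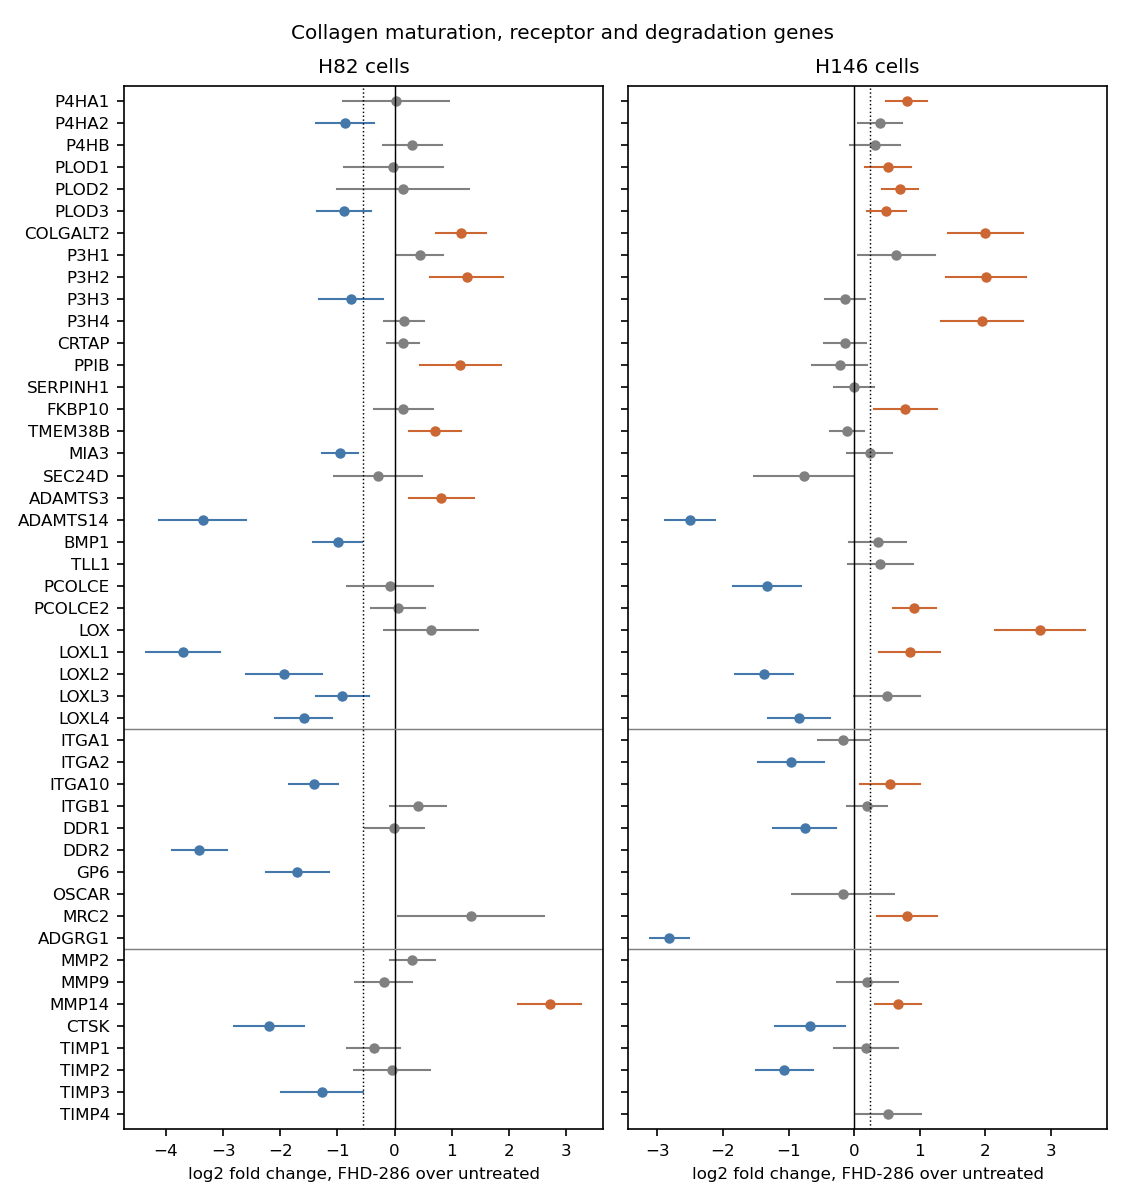
Log2 differences (treated minus untreated, log2(TPM + 1)) of the maturation, receptor and degradation genes tested in each line, with 95% intervals, higher calls in orange, lower calls in blue, others in grey and the dotted line at the median of all genes (-0.56 in H82 and 0.25 in H146). *LOXL1* in H82 and *ADGRG1* in H146 lie lowest, and *MMP14* in H82 and *LOX* in H146 lie highest.

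The summed TPM of 6 NE markers was 699.6 to 781 in untreated H82 and 266, 736 and 438 in treated H82 replicates 1, 2 and 3, so that without replicate 2 the groups did not overlap. In H82 3 of 6 fell and *INSM1* rose, the latter a call that was lost in 7 of 14 alternatives. Of all genes tested in H82, 45.5% were lower and 13.1% higher, so the NE markers fell about as often as genes at large. In H146 the sum was 1441 to 1751 untreated and 1030 to 1289 treated. Most of it was *INSM1*, at 1230 ± 151 TPM untreated and 870 ± 115 TPM treated (SD, n = 3 and 4). Of 5 markers tested in H146, *INSM1* and *DLL3* fell, beside 15.5% of all genes tested there. The *INSM1* call was lost in 6 of 15 alternatives. *SYP*, *CHGA* and *NCAM1* were not called there (limma adjusted *p* = 0.15, 0.559 and 0.645). Endothelial markers summed to at most 2.65 TPM in any library.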

How the data were processed

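RNA-seq of 13 libraries of the SCLC lines H82 and H146 was analysed. Per the labels and the study's methods, the authors trimmed reads with Trim Galore 0.4.4, used STAR with GENCODE release 28 on hg38 for mapping and gene counts, and used DESeq2. They deposited 1 table per line of TPM values, which sum to 1000000 in each library. How gene length was taken is not given in the sources used here. TPM keeps no read depth, so no counting interval is given, and precision comes from the spread between libraries. No column of other samples was present.

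Each line was fitted in R 4.3.3 with limma 3.58.1 (lmFit, eBayes with trend, two-sided) on log2(TPM + 1). Genes that reached 1 TPM in 3 or more of its libraries entered, *p* values were adjusted over all of them by the Benjamini-Hochberg method, and 0.05 was the threshold. A gene could thus enter through 1 group alone. The interaction of line and treatment was tested in 1 fit over genes that passed in either line. Single genes below the filter were compared by an exact two-sided permutation test of mean log2(TPM + 1). The pipeline was tested on simulated data. Coordinates and identifiers came from GENCODE release 44 (hg38), where all 44 collagen symbols matched, and promoter sequences from RefSeq. Tables and plots were made with Python 3.11.15, numpy 2.4.6, pandas 2.3.3 and matplotlib 3.10.9, with statmod 1.5.0 for limma.

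The collagens, classes, gene lists, tests and alternatives were chosen with earlier results of these data known, and no result is independent support for those. Collagens that passed the filter in either line were named with their values in each library. Others were named where groups did not overlap and a group mean reached 0.3 TPM. Of the maturation, receptor and degradation genes, the 4 largest rises and 4 largest falls among called genes of each line were named. Alternatives were quantile or median-of-ratios scaling, 0.1 as the pseudocount, any TPM above 0 or a mean TPM above 2 as the filter, a block for replicate number, library weights, eBayes with no trend, and each library left out. Samples with the same replicate number did not deviate together (correlations across genes from -0.11 to 0.03), so the numbers were not treated as pairs.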

Additional observations from a re-analysis of the deposited data

Results flagged for a closer look

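The response to FHD-286 differed between the lines for 20 of 29 collagens, by the interaction of line and treatment in limma over all 13 libraries (adjusted *p* between 3.23e-07 and 0.0242, two-sided). Of all 23676 genes tested in that fit, 46.5% had a higher and 13.7% a lower response in H146, so such differences were common among genes at large. Genes below the filter in 1 line were included. The values are log2 differences, the response in H146 minus the response in H82. Among the fibrillar genes they were 4.79 for *COL5A1*, 4.58 for *COL27A1*, 3.51 for *COL11A1*, 3.05 for *COL5A2*, 1.84 for *COL3A1*, 1.58 for *COL11A2* and -7.25 for *COL2A1*. Among the basement membrane genes they were 1.49 for *COL4A1*, 1.45 for *COL18A1* and 0.82 for *COL4A4*. Of the fibril-associated genes, *COL16A1* was at 2.06, *COL20A1* at 1.26, *COL19A1* at -0.76, *COL14A1* at -1.53 and *COL22A1* at -2.54. The remaining values were 2.60 for *COL7A1*, 2.25 for *COL23A1*, 1.43 for *COL8A2*, 0.69 for *COL28A1* and -1.44 for *COL17A1*. The median over all genes of that fit was 0.73, so *COL28A1* lay below it and *COL4A4* just above it. With quantile normalization *COL3A1*, *COL4A4*, *COL8A2*, *COL11A2*, *COL18A1* and *COL28A1* lost the call. Without treated H82 replicate 2 all 20 remained past the threshold, and *COL1A1* joined them at -2.92 (limma adjusted *p* = 0.000438).

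*COL18A1* in treated H146 had 1 library far from the others. The gap between replicate 3, at 3.57 TPM, and the nearest other treated library was 0.878 of the range of the group of 4. Chance flags about 1 in 20 groups.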

How the results depend on the processing

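In H82 the 9 lower and 2 higher collagens became 5 and 4 under quantile normalization, and a mean TPM above 2, which tests fewer genes, left 5 lower. That minimum left 5 of the 10 higher collagens of H146, and for the difference between lines it left 2 lower and 8 higher in place of 5 and 15, where quantile normalization gave 9 and 9. Of the maturation, receptor and degradation genes, the 6 higher in H82 became 15 under the median of ratios, 14 under quantile scaling and 10 with library weights (arrayWeights), and the 14 higher in H146 became 8 with the median of ratios. The cause of the shifts with scaling and weights was not tested. No alternative moved the 5 lower collagens of H146 by more than 1.5 times.

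With each library left out in turn, the collagens lower in H82 were 9 to 11 and those higher 1 to 3, where *COL19A1* lost its call without untreated replicate 1 or 3 or treated replicate 1 or 3. The collagens lower in H146 stayed at 5, and those higher were 6 to 12, with 6 without untreated replicate 3. The difference between lines kept 5 to 6 lower and 14 to 15 higher. The maturation, receptor and degradation genes were 14 to 16 lower and 4 to 12 higher in H82, with 12 without treated replicate 1, and 7 to 10 lower and 10 to 16 higher in H146.

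The sign turned for genes that were not called. Under the median of ratios the log2 differences were -0.18 for *COL1A1* in H146, -0.0872 for *COL4A6* in H146, -9.03e-05 for *COL9A2* in H146, 0.11 for *COL6A2* in H82 and 0.24 for *COL9A3* in H82. Under quantile normalization they were -0.19 for *COL1A1* in H146, 0.65 for *COL6A2*, 0.46 for *COL8A2*, 0.88 for *COL9A3*, 0.15 for *COL11A1* and 0.30 for *COL18A1*, all 5 in H82. Among called values, the difference between lines turned to -0.17 for *COL4A4* and -0.16 for *COL28A1* under quantile normalization, both no longer called. With each library left out, *COL1A1* in H146 ran from -0.0158 to 0.211, *COL6A2* in H82 from -0.60 to 0.36, *COL9A3* in H82 from -0.389 to 0.0924 and *COL9A3* in H146 from -0.143 to 0.0720.

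The replicate numbers did not pair the samples. With the number as a block, 9 collagens were lower and 1 higher in H82, 5 lower and 7 higher in H146, and the difference between lines kept 5 lower and 15 higher. *COL9A3* in H146 was at 0.0720 under that block.

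TPM holds no read counts, so the reads behind values below 1 TPM are unknown. Exact permutation tests of 3 against 3 libraries cannot go below 0.1.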
